A study of Mus musculus with 18 samples.

Results

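Mouse embryonic stem cells (mESCs) express a set of genes that are otherwise known from germ cells and from the inner cell mass, and 10 of these were followed here: the developmental pluripotency associated genes Dppa2, Dppa3, Dppa4 and Dppa5a, and Prdm14, Tcl1, Zfp42, Fbxo15, Dazl and Kit. They were chosen by name, as Dppa family genes and genes shared by naïve stem cells and germ cells, and each was found by its Ensembl mouse identifier among the 46078 genes of the count table, of which 21519 were protein-coding. All 10 passed the filter on low counts and were among the 13438 genes tested. The cells were E14 mESCs, an established line, held for 24 h on StemBond hydrogels coated with fibronectin, in medium with serum and LIF, a cytokine that sustains pluripotency. These polyacrylamide gels carry the co-factor AHA, whose concentration sets how firmly matrix protein is tethered to the gel. The 6 groups combined a soft gel (about 750 Pa) or a stiff gel (about 160 kPa) with AHA at 16 mM (called low), 48 mM (mid) or 80 mM (high), with 3 libraries each, and the comparison asks how stiffness and tethering change expression.

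Naïve pluripotency is the state of the preimplantation epiblast, and primordial germ cells, which are set aside from the later epiblast, take up many of its genes again. Dppa3 and Prdm14 act in early germ cells, Kit is the receptor through which Kit ligand keeps migrating germ cells alive, and Dazl is an RNA-binding protein of committed germ cells. In mESCs Zfp42, also called Rex1, and Dppa3 are known as markers that vary with the naïve state, whereas Dppa2 and Dppa4 form a complex that primes chromatin, also at genes of the 2-cell embryo.

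Library size ranged from 5850621 to 9290261 gene counts, with 4086447 to 6502650 in protein-coding genes. The spike-in share was 0.607 to 0.725% in 17 libraries and 1.37% in soft, high AHA replicate 1. That library was left out because the study set aside libraries with a high spike-in share, which left 8 soft and 9 stiff libraries and only 2 in the soft, high AHA group. The labels did not say whether libraries of a group came from separate cultures, so the p-values measure the spread between these samples, which may be technical. The mESC identity of the samples was visible in 8 of 8 stem cell markers, Pou5f1, Sox2 and Nanog among them, whose summed level was 4121 to 4319 CPM (a count scaled to a common protein-coding library size) on soft and 4138 to 4362 CPM on stiff gels. Single markers differed between the gels, with Nanog, Sox2 and Sall4 called higher on soft gels and Lin28a and Utf1 lower, and L1td1 gave the most to the sum (1438 CPM).

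On soft gels, 7 of the 10 genes were higher than on stiff gels at an adjusted p under 0.05 when the 3 AHA levels were averaged, and 0 were lower. These were Kit, Zfp42, Dppa3, Tcl1, Dppa5a, Fbxo15 and Prdm14. Among all 13438 genes tested, 3.77% were called higher and 4.82% lower in this comparison. The median log2 fold change of the 10 genes was 0.20, beside 0.00105 over all genes tested. The size of the change was modest and differed between the genes, from 0.15 for Fbxo15 to 0.50 for Dppa3 on the log2 scale among those called. In none of the 10 genes were all soft libraries above all stiff libraries. That separation in either direction was found for 170 of all genes tested (1.27%). In bulk RNA, fewer cells that express a gene and less of its RNA in each cell cannot be told apart.

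**Figure D1:**
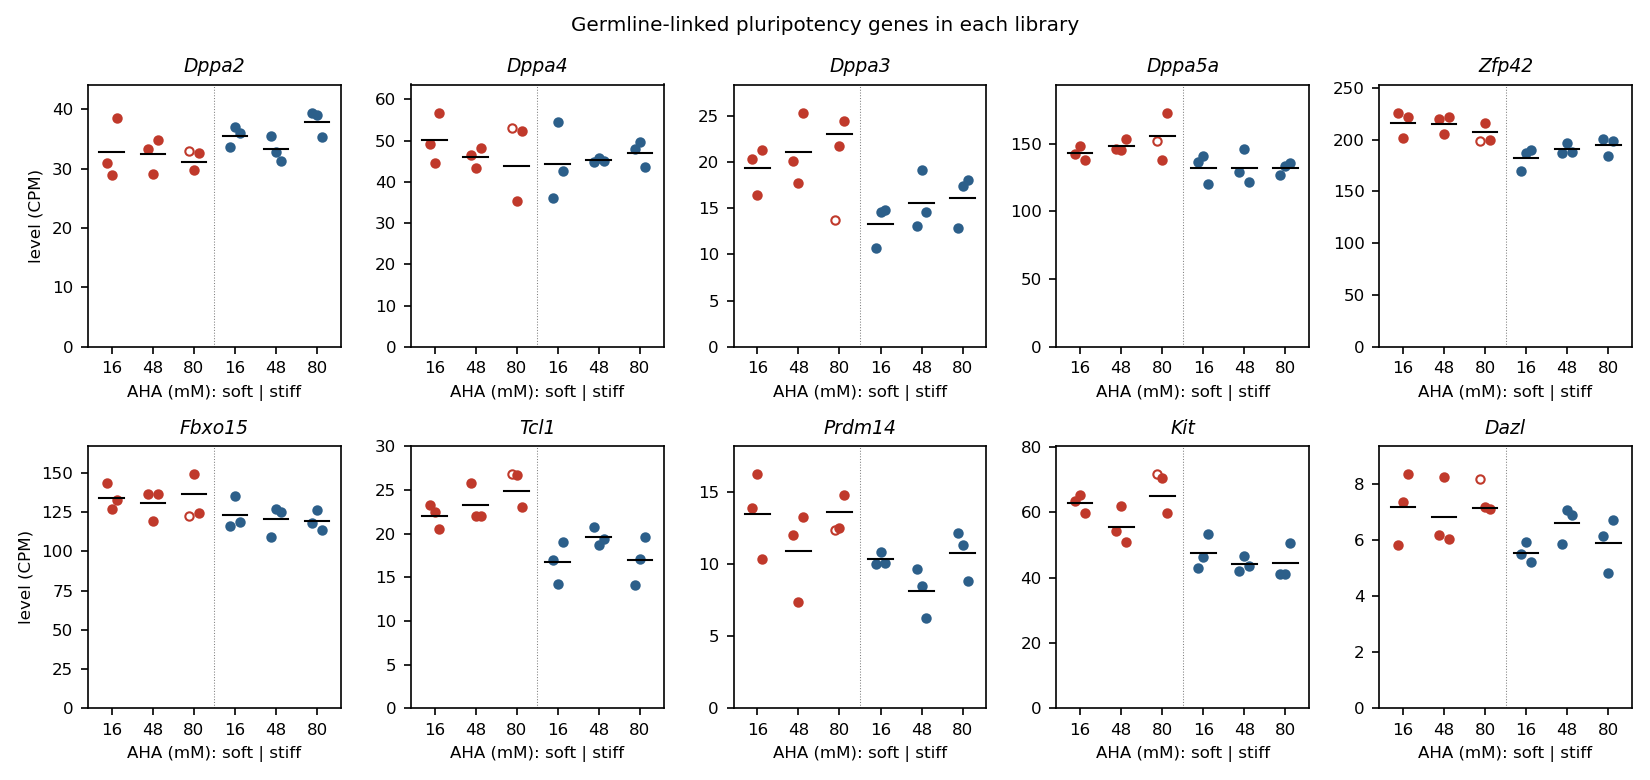
Level of each gene (CPM, linear axis from 0) in each library, by AHA concentration, for soft (red) and stiff (blue) gels. Points are libraries, short lines are group means and the open point is the soft, high AHA library that was left out. Kit, Zfp42 and Tcl1 had 7 of 8 soft libraries above every stiff library, while Dppa2 had 4 of 8 soft libraries below every stiff library and the points of Dppa4 lay over each other.

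Levels of the 10 genes spanned a wide range. Compared per kilobase of annotated exon, Dppa5a was at 226 ± 20.5 CPM per kb (SD, n = 17) and Zfp42 at 107 ± 8.43 CPM per kb, and neither range overlapped that of the gene below it. Below them came Fbxo15 at 37.8, Dppa4 at 27.8, Dppa3 at 19.9, Dppa2 at 13.9, Tcl1 at 11.0, Kit at 5.90 and Prdm14 at 4.31 CPM per kb. Dazl was lowest, at 1.70 ± 0.259 CPM per kb, and its range did not reach that of Prdm14. The ranges of neighbours from Fbxo15 to Prdm14 overlapped, although within single libraries the upper gene of each such pair was mostly above the lower. Fbxo15 was above Dppa4 and Tcl1 above Kit in 17 of 17 libraries, whereas Dppa2 was above Tcl1 in 13 of 17. Length here is the union of all annotated exons, which is long for Kit (8.911 kb) and short for Dppa5a (0.619 kb).

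Kit, the tyrosine kinase receptor for Kit ligand (chr5:75574916-75656722, plus strand, GRCm38), had the lowest adjusted p. On soft gels its libraries read 63.6, 65.4 and 59.7 CPM at low AHA, 54.4, 61.9 and 50.8 CPM at mid AHA, and 70.4 and 59.9 CPM at high AHA. On stiff gels they read 42.9, 46.3 and 53.4 CPM at low AHA, 42.1, 46.8 and 43.5 CPM at mid AHA, and 41.3, 41.2 and 50.7 CPM at high AHA. Only the soft, mid AHA library at 50.8 CPM fell within the stiff range, which reached 53.4 CPM. The averaged log2 fold change was 0.43 ± 0.059 (SE, adjusted p = 3.57e-09), or a mean of 60.8 ± 6.17 CPM against 45.4 ± 4.34 CPM (SD, n = 8 and n = 9). With any single library left out, the adjusted p of Kit was at most 1.85e-06. Kit was also the single gene of the 10 that was called at each AHA level on its own.

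Zfp42, a zinc finger protein of the YY1 family (chr8:43295063-43306980, minus strand), was the highest in CPM. Its soft libraries ran from 199 CPM through a median of 218 to 226 CPM, and its stiff libraries from 170 through 188 to 201 CPM. The overlap was narrow, since 7 of 8 soft libraries lay above the highest stiff library. With a log2 fold change of 0.17 ± 0.033 (adjusted p = 3.73e-05) its relative change was small but precisely measured. Counting error alone contributes a coefficient of variation of 3.02% at its mean count, against 5.90% for Kit and 10.2% for Dppa3.

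Dppa3, which protects the maternal genome from loss of DNA methylation after fertilisation (chr6:122626410-122630272, plus strand), had an averaged log2 fold change of 0.50 ± 0.10 (adjusted p = 8.59e-05). This was the highest of the 10 estimates with 17 libraries, but with all 18 libraries Kit was at 0.45 and Dppa3 at 0.43. Soft libraries ranged from 16.4 through a median of 20.7 to 25.3 CPM and stiff libraries from 10.7 through 14.6 to 19.17 CPM. The 3 soft group means were 19.3, 21.04 and 23.1 CPM from low to high AHA, and the 3 stiff means were 13.3, 15.6 and 16.1 CPM. No AHA contrast of Dppa3 was called, and high minus low AHA had 95% intervals from -0.10 to 0.60 on soft and from -0.082 to 0.62 on stiff gels (log2). The left-out soft, high AHA library held 13.8 CPM, below each of the 8 other soft libraries, and with all 18 libraries, or with another library of that group left out in its place, Dppa3 was still called.

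Tcl1, a co-activator of the kinase AKT (chr12:105216750-105222793, minus strand), was at 20.5 to 26.7 CPM on soft gels (median 22.7) and at 14.1 to 20.7 CPM on stiff gels (median 18.7). Its groups met only at the edge, as 7 of 8 soft libraries exceeded all stiff ones. The averaged log2 fold change was 0.40 ± 0.091 (adjusted p = 0.000766). Akt1, which encodes its kinase partner, was lower on soft gels (-0.15 ± 0.038, adjusted p = 0.00334), and Akt2 was not called (-0.088 ± 0.063).

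Dppa5a, a KH-domain RNA-binding protein (chr9:78367052-78368177, minus strand), and Fbxo15, an F-box protein long used as a stem cell reporter (chr18:84934782-84981473, plus strand), shifted by smaller amounts. Dppa5a was at 138 to 173 CPM on soft gels (median 146) and 120 to 146 CPM on stiff gels (median 134), which gave 0.17 ± 0.040 (adjusted p = 0.00119). Fbxo15 was at 120 to 149 CPM on soft gels (median 134) and 109 to 136 CPM on stiff gels (median 119), which gave 0.15 ± 0.041 (adjusted p = 0.00806). Both overlapped more than Kit, Zfp42 and Tcl1, with 4 of 8 soft libraries above all stiff ones. Both calls turned on a library of the soft, high AHA group. Without replicate 3 the value for Dppa5a was 0.11 (adjusted p = 0.0821), and without replicate 2 that for Fbxo15 was 0.098 (adjusted p = 0.198). Each of these fits leaves 1 library in that group, which is assumed to vary like the other groups. With all 18 libraries both were called.

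Prdm14, a regulator of germ cell specification that holds back Dnmt3b and FGF signalling in mESCs (chr1:13113457-13127163, minus strand), was counted sparsely, with 31 to 86 reads per library. Soft libraries ranged from 7.33 through 12.8 to 16.2 CPM and stiff libraries from 6.28 through 10.0 to 12.1 CPM, with 5 of 8 soft libraries above all stiff ones. The averaged difference was close to that of Tcl1, at 0.38 ± 0.13, but only just passed the threshold (adjusted p = 0.0367). The call was lost in 9 of the 17 fits that left out 1 library, where the adjusted p reached 0.124, and with DESeq2 (adjusted p = 0.0646). Its co-repressor Cbfa2t2 was higher on soft gels (0.18 ± 0.044, adjusted p = 0.00144), and Dnmt3b was lower (-0.13 ± 0.023, adjusted p = 7.34e-06). Whether Prdm14 has a part in either of these values was not tested.

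**Figure D2:**
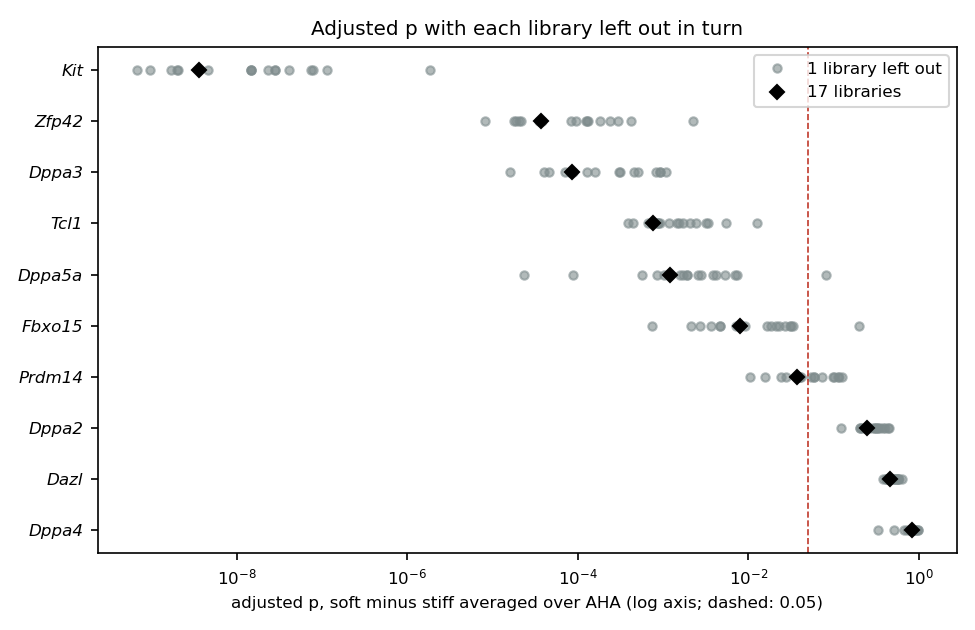
Adjusted p (edgeR, log axis) for soft minus stiff averaged over AHA, with 17 libraries (black diamonds) and with each library left out in turn (grey points), and the 0.05 threshold as a dashed line. Kit, Zfp42, Dppa3 and Tcl1 stayed under the threshold in all 17 fits, Dppa5a and Fbxo15 crossed it in 1 fit each, and Prdm14 in 9.

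Dazl, Dppa4 and Dppa2 were not called. Dazl (chr17:50279395-50293636, minus strand) had only 20 to 46 reads per library and was at 5.82 to 8.35 CPM on soft and 4.82 to 7.08 CPM on stiff gels. Its log2 fold change of 0.22 ± 0.16 had a 95% interval from -0.086 to 0.53, so a change as large as that of Kit was within what this depth allowed. Dppa4 (chr16:48283733-48294237, plus strand) was at 35.3 to 56.8 CPM on soft and 36.1 to 54.5 CPM on stiff gels, which gave 0.037 ± 0.067 with an interval from -0.096 to 0.17. Its sign turned without replicate 3 of the soft, high AHA group (-0.062) or replicate 1 of the stiff, low AHA group (-0.0070). Dppa2 (chr16:48303908-48319723, plus strand) had the single negative value, -0.14 ± 0.072 (adjusted p = 0.246), with an interval from -0.29 to 0.00041. Its libraries ran from 28.9 through 31.8 to 38.5 CPM on soft gels and from 31.4 through 35.6 to 39.4 CPM on stiff gels.

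Dppa2 and Dppa4 lie next to each other on chromosome 16 and encode partners of one complex, so their counts were also compared within libraries. Reads of Dppa4 over reads of Dppa2 ranged from 1.19 to 1.60 in soft libraries and from 1.07 to 1.47 in stiff libraries. The log2 ratio was 0.54 ± 0.14 on soft and 0.35 ± 0.15 on stiff gels (SD), a difference of 0.18 averaged over AHA. The difference was 0.11 without replicate 3 of the soft, high AHA group and 0.11 with pseudogene reads added to both genes. A two-sided exact permutation test gave p = 0.0318, and p was above 0.05 in 8 of 17 tests without a single library. The pair was looked at after the estimates were seen to lie on opposite sides of 0, so the ratio is given as a description and nothing is read from that p.

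At single AHA levels fewer of the genes passed. At low AHA, Zfp42 (0.25 ± 0.056, adjusted p = 0.00129) and Kit (0.40 ± 0.099, adjusted p = 0.00489) were higher on soft gels, where 0.848% of all genes tested were called higher. Both were lost without replicate 1 of the stiff, low AHA group (adjusted p = 0.071 for Zfp42 and 0.1202 for Kit). At mid AHA, Kit alone passed (0.33 ± 0.10, adjusted p = 0.0463), beside 1.01% of all genes, and Zfp42 missed the threshold (0.18 ± 0.055, adjusted p = 0.0549). This call of Kit held in 17 of 26 alternative fits. At high AHA, Kit alone passed (0.55 ± 0.11, adjusted p = 0.00073), beside 0.409% of all genes, and it did not pass without replicate 2 of the soft group (0.42 ± 0.14, adjusted p = 0.163), where Dppa5a was called instead. That fit has 1 library in the soft, high AHA group, replicate 3, in which Dppa5a stood far above the other soft libraries, and its spread is taken from the other groups.

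The values at the 3 AHA levels were then set against each other. For Zfp42 the soft minus stiff difference was 0.25, 0.18 and 0.090 from low to high AHA, and for Tcl1 it was 0.38, 0.25 and 0.56. In the same order Dppa4 was at 0.20, 0.026 and -0.12 and Dppa2 at -0.11, -0.031 and -0.29, with neither called at any level. The edgeR test that the 3 differences were equal called none of the 10 genes, and none had an unadjusted p under 0.05. DESeq2 also called 0, again with no unadjusted p under 0.05. The edgeR test called 4 genes in all (0.0298%), so differences between AHA levels in the response of these genes were not detectable.

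**Figure D3:**
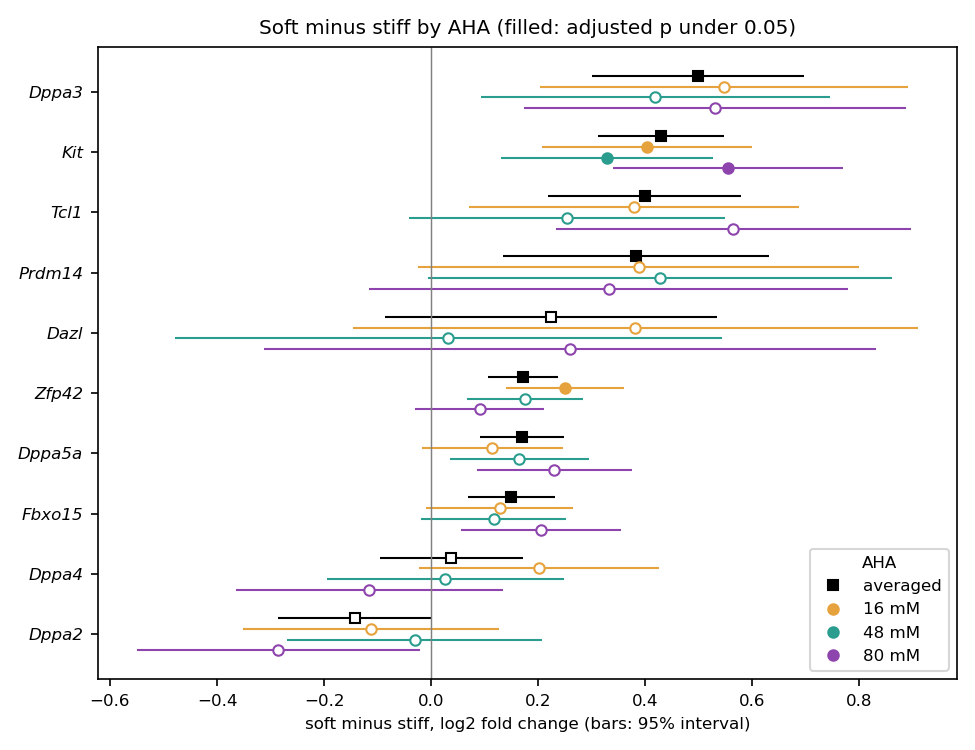
Soft minus stiff log2 fold change of each gene, averaged over AHA (black squares) and at 16, 48 and 80 mM AHA (orange, green and purple circles), with 95% intervals; filled symbols passed an adjusted p of 0.05. Only Kit is filled at all 3 AHA levels, and Dppa2 has all 4 values below 0.

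AHA levels were also compared at each stiffness. The edgeR test called 0 of 10 in each of the 6 AHA comparisons. DESeq2 also called 0 in each, and its unadjusted p was under 0.05 for none of the 10 genes. Across all genes tested, high minus low AHA called 0.253% on soft and 0.00744% on stiff gels, high minus mid AHA called 0.067% on soft and 0.00744% on stiff gels, and mid minus low AHA called 0 genes at either stiffness (0%). In edgeR the 6 comparisons held 1 value of these genes at an unadjusted p under 0.05, Kit in high minus mid AHA on soft gels (0.23 ± 0.10, adjusted p = 0.651).

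The Dppa genes have processed pseudogenes whose sequence can take or give reads, and this was measured over 50-base stretches of their annotated transcripts. Of such stretches, 38.6% in Dppa5a, 31.3% in Dppa4, 29.1% in Dppa2 and 16.5% in Dppa3 occur exactly in another annotated gene, as do 8.52% in Zfp42, whose copy Zfp42-ps1 had no counts used here. Prdm14, Tcl1, Fbxo15, Dazl and Kit shared none. The exons of the 10 genes overlapped no exon of another gene on either strand, so the counting of strand, which is not given in the sources used here, does not bear on them.

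The Dppa3 pair is shown because Dppa3 was called and its pseudogene is annotated as transcribed. Over 451 aligned coding bases, Dppa3 and its transcribed pseudogene Dppa3-ps on chromosome X (chrX:37625647-37626097, minus strand) were 98.2% identical, with 8 mismatches and a longest identical run of 86 bases. The coding stretch with most mismatches, coding bases 58 to 177 counted from the start codon and spanning 2 exons within chr6:122626580-122628665, is printed 5′ to 3′ with the bases that differ in capitals.
Dppa3: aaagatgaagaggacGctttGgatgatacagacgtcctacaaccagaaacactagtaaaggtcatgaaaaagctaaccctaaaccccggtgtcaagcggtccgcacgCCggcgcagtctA
Dppa3-ps: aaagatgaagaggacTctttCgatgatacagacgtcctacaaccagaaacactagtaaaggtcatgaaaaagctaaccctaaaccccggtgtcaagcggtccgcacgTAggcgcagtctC
Coding bases 2 to 121 of Dppa2, within chr16:48310508-48311662, are shown in the same way beside Gm9788, the pseudogene that shares most with it (99.3% identical over 906 bases, with 6 mismatches).
Dppa2: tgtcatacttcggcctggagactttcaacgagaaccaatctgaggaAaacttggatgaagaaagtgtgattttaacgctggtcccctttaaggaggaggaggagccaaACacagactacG
Gm9788: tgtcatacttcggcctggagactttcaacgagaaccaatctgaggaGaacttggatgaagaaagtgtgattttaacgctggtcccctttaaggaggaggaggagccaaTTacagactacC
In the first pair 5 and in the second 4 of 120 bases tell gene and pseudogene apart.

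Dppa3-ps was assigned 24 to 51 reads per library, 39.0 for every 100 of Dppa3. It did not pass the test in the fit with genes of every biotype (0.12 ± 0.15, adjusted p = 0.751). Within libraries Dppa3 had 2.06 to 4.56 reads for each read of Dppa3-ps on soft gels and 1.36 to 3.17 on stiff gels. The averaged difference of this log2 ratio was 0.39, and a two-sided exact permutation test within AHA levels, chosen after the values were seen, gave p = 0.0263 (adjusted p = 0.0318 over the 2 ratios computed). Since the pair was looked at with the separate values known, nothing is read from that p. Without single libraries the difference ran from 0.28 to 0.47, and p was above 0.05 in 4 of 17 such tests, up to 0.079. With the pseudogene reads added to the gene, Dppa3 remained called at 0.39 ± 0.084 (adjusted p = 0.000303).

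For the other Dppa genes the copies were as follows. Counted on their own, Gm14058 had 62.5 and Gm5501 14.8 reads for every 100 of Dppa4, and Gm9788 had 35.3 and Gm8023 9.67 for every 100 of Dppa2. None of these 4 pseudogenes was called, with log2 fold changes from -0.059 (Gm5501) to 0.17 (Gm8023). For Dppa5a the copy with most reads, Gm6083, was assigned 14.0 for every 100 of Dppa5a (0.11 ± 0.098, adjusted p = 0.629). Adding pseudogene reads gave 0.15 ± 0.037 (adjusted p = 0.00174) for Dppa5a, 0.028 ± 0.049 for Dppa4 and -0.074 ± 0.060 for Dppa2, so that no call of these genes changed. Only pseudogenes with counts could be added. Among those without counts were Dppa5b and Dppa5c, each sharing 10% of the stretches of Dppa5a, and Gm9298, sharing 5.63% of those of Dppa2. Pigp, a protein-coding gene sharing 12.3% with Dppa5a, was not added. Because reads in shared stretches could be placed on either copy, the levels of the 4 Dppa genes and of their pseudogenes are uncertain.

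**Figure D4:**
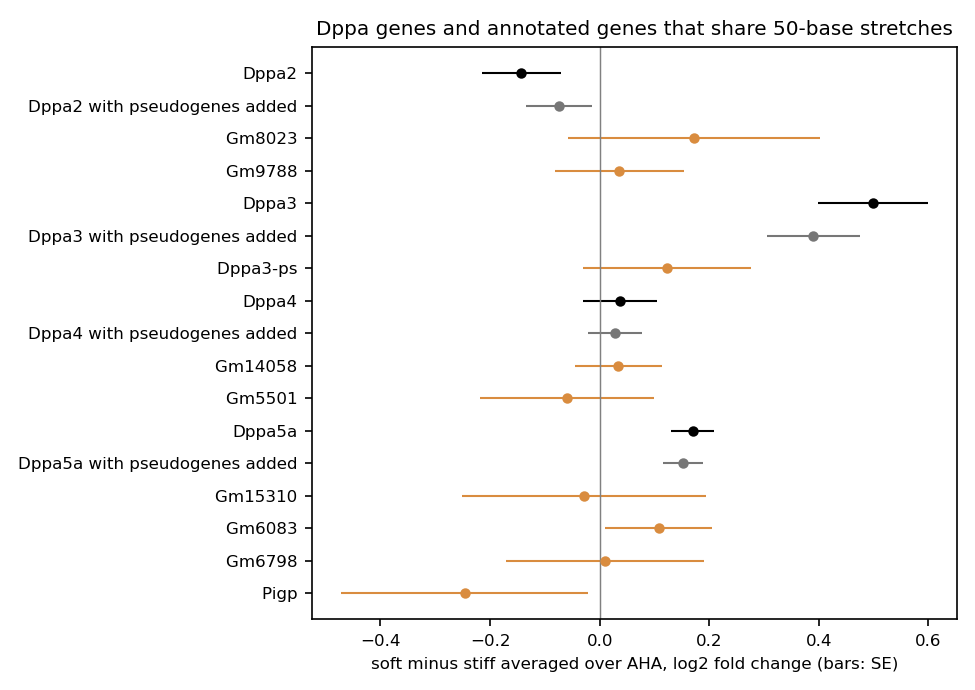
Soft minus stiff log2 fold change averaged over AHA (points) with SE (bars) for the 4 Dppa genes (black), for the same genes with pseudogene reads added (grey) and for the annotated genes that share 50-base stretches with them and were tested (orange). Dppa3 moved from 0.50 to 0.39 and Dppa5a from 0.17 to 0.15 when pseudogene reads were added.

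RefSeq promoter windows (GRCm38.p6, 250 bases before to 50 after the start) were matched for 4 of the 10 genes, Kit, Zfp42, Tcl1 and Dazl. Kit has 2 such windows, of which the first was used. These 4 are shown because they are the windows that matched. Searched on both strands were CACGTG (an E-box), TCCCGC (an E2F-like motif), ATGCAAAT (the octamer) and CCCGCC (a GC box), which occur in 7.15%, 20.0%, 1.74% and 35.3% of all 32851 windows. The bases before the annotated gene are printed 5′ to 3′ in the direction of transcription, with matches in capitals.
Kit, chr5:75574737-75574915, plus strand: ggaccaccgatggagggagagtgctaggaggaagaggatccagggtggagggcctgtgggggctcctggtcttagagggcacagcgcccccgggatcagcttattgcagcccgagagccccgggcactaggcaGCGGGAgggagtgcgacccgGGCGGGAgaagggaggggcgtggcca
Zfp42, chr8:43307010-43307259, minus strand: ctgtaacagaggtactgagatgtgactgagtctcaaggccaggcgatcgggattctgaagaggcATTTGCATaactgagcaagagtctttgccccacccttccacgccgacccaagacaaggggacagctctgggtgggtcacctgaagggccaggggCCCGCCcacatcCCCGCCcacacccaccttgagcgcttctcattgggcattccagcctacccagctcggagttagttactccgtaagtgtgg
Tcl1, chr12:105222794-105222987, minus strand: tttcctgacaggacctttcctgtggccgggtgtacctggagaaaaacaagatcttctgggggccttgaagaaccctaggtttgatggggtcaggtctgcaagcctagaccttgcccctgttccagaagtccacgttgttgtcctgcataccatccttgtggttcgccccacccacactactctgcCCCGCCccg
Dazl, chr17:50293637-50293870, minus strand: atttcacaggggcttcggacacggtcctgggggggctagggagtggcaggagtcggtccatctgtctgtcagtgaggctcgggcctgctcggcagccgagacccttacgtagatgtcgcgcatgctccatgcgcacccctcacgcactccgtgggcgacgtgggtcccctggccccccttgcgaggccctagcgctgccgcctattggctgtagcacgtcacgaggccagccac
Kit held 2 matches to TCCCGC and 1 to CCCGCC, which overlaps the second of them. Zfp42 held the octamer and 2 matches to CCCGCC, and Tcl1 held 1 match to CCCGCC. No motif searched was found in the window of Dazl, and CACGTG was in none of the 4. The ratio of observed to expected CpG was 0.795 in Dazl, 0.621 in Kit, 0.462 in Tcl1 and 0.441 in Zfp42, beside a median of 0.384 over all windows.

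Related genes were then read as lists. Of 13 naïve pluripotency factors 10 were higher on soft gels and 0 lower, with a median log2 fold change of 0.26. Esrrb (0.35 ± 0.029, adjusted p = 4.37e-20), Nanog (0.38 ± 0.040, adjusted p = 5.08e-14), Tfcp2l1 (0.27 ± 0.033, adjusted p = 3.96e-11) and Sox2 (0.19 ± 0.029, adjusted p = 9.40e-08) had the lowest adjusted p. Differences in size between these factors and the 10 genes were not tested.

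Germ cell genes outside the 10 were read in the same way. Of 45 listed, 41 were tested, of which 5 were higher and 1 lower, with a median of 0.060. Ifitm1, an interferon-induced membrane protein of early germ cells (0.35 ± 0.066, adjusted p = 2.94e-05), Tfap2c (0.17 ± 0.043, adjusted p = 0.00235) and Prdm1 (0.33 ± 0.089, adjusted p = 0.00597), both regulators of germ cell specification, rose on soft gels. Lin28a, an RNA-binding protein that blocks let-7 maturation, fell (-0.18 ± 0.025, adjusted p = 9.38e-09). The 8 committed germ cell markers had a summed level of 94.2 to 116 CPM on soft and 74.9 to 101.04 CPM on stiff gels. Dazl and Prdm1 are among them. Ddx4, with a mean of 44.5 CPM, gave the most to the sum. It was higher on soft gels (0.19 ± 0.063, adjusted p = 0.042), as was Prdm1, and none of the 8 was called lower. The others were not called, with Sycp3 at 0.31, Dazl at 0.22 and Nanos3 at 0.20, but Tex101 at -0.31, Mael at -0.11 and Stra8 at -0.013. The part of these markers in the values above was not tested.

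A list of chromatin regulators of germ cell genes held silencing factors and also the Tet enzymes, which oxidise 5-methylcytosine and favour expression. Of 25 tested, 6 were higher and 4 lower, with a median of 0.011. Tet2 (0.23 ± 0.035, adjusted p = 9.90e-08) and Morc1 (0.24 ± 0.049, adjusted p = 0.00013) were higher on soft gels, while the methyltransferase Dnmt3b and its cofactor Dnmt3l (-0.13 ± 0.026, adjusted p = 9.49e-05) were lower. None of the 12 tested genes of the 2-cell stage, many of them targets downstream of Dppa2 and Dppa4, was called by edgeR, with 1 at an unadjusted p under 0.05 (Tcstv3, -0.69 ± 0.32). Of 23 partners of the 10 genes tested, Cbfa2t2 was higher and Akt1 lower, shares close to the 3.77% and 4.82% over all genes. Kitl, which encodes the ligand of Kit, was not called (0.11 ± 0.10).

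**Figure D5:**
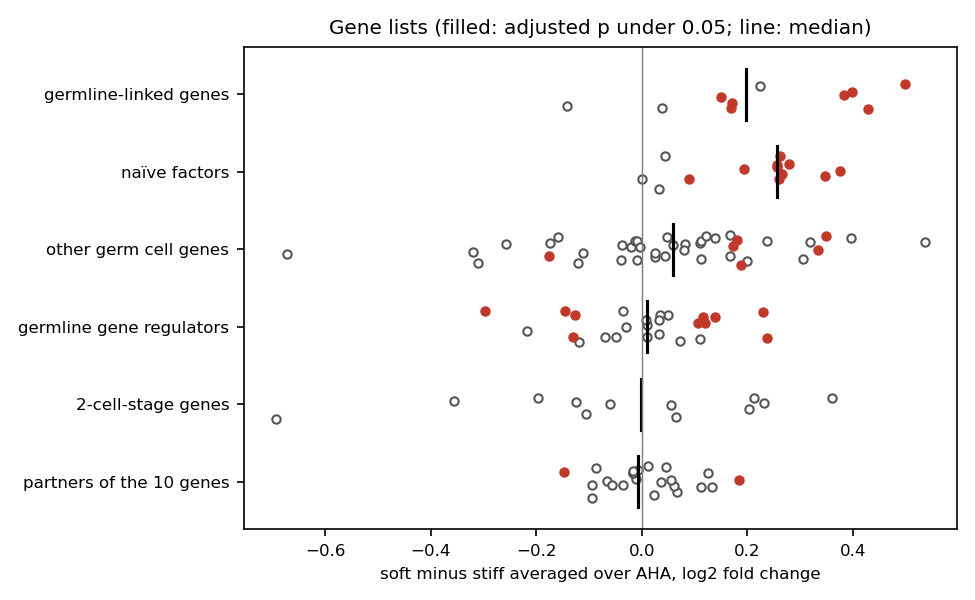
Soft minus stiff log2 fold change averaged over AHA for the tested genes of 6 lists, with filled points for an adjusted p under 0.05 and a line at each median. The medians were 0.20 for the germline-linked genes, 0.26 for the naïve factors, 0.060 for other germ cell genes, 0.011 for the regulators, -0.0017 for genes of the 2-cell stage and -0.0080 for partners.

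Markers of other cell types also differed between the gels. Summed over 7 trophoblast markers, soft libraries were at 389 to 459 CPM and stiff libraries at 506 to 566 CPM, with Krt8, which made up most of the sum, Hand1 and Krt7 lower on soft gels and Elf5 near 0 with 37 reads in all. Over 6 neural markers the ranges were 298 to 367 and 364 to 393 CPM (Nes, most of the sum, lower, with the 3 other tested markers Pax6, Tubb3 and Sox1 at 0.29, 0.10 and 0.13 and not called), over 8 fibroblast markers 116 to 197 and 167 to 239 CPM (Col1a1, most of the sum, lower, and no other called), over 8 primitive endoderm markers 198 to 260 and 164 to 201 CPM (Lama1, most of the sum, higher, and no other called), and over 7 mesendoderm markers 26.2 to 40.0 and 24.9 to 43.4 CPM. Neurog2, Lum and Mesp1 were near 0, with 7, 6 and 9 reads over the 17 libraries. Whether these cells or genes have a part in the differences of the 10 genes was not tested.

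Across the 17 libraries some of the genes followed each other. Dppa3 and Zfp42 had a Pearson correlation of log2 CPM of 0.78, and Tcl1 and Kit one of 0.75. After subtraction of group means these were 0.51 and 0.50, while Zfp42 and Kit went from 0.68 to 0.26, Dppa3 and Tcl1 from 0.65 to 0.058 and Tcl1 and Zfp42 from 0.63 to 0.046. Dppa2 and Dppa4 correlated at 0.46, and at 0.67 within groups, whereas Dppa2 ran against Tcl1 (-0.66, and -0.34 within groups) and Kit (-0.64, and -0.57 within groups). These correlations are over libraries that share stiffness and scaling, and are given as a description.

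Among 9216 other genes averaging 10 CPM or more, the likest to each gene by the same measure were as follows. Kit was followed most closely by Enah and Ifitm1 (both 0.87), Tcl1 by Cdkn1b (0.91) and Ephb3 (0.84), and Zfp42 by Lonrf1 (0.84) and Crebrf (0.83). For Dppa3 they were Sfrp1 (0.83) and Blm (0.79), for Dppa5a Ephx2 (0.90) and Ifitm2 (0.85), and for Fbxo15 Eif2s2 (0.86) and Ccdc171 (0.85). Prdm14 was closest to Ptov1 (0.82) and Aldh16a1 (0.80), Dppa4 to Ybx2 (0.80) and Psmg1 (0.78), and Dppa2 to Crip2 (0.78) and Nxpe3 (0.76). Dazl was under 10 CPM and was not compared. For each gene these are the highest of 9216 correlations over 17 libraries, and the highest of so many can be large by chance. The libraries share stiffness and scaling here too, and values after subtraction of group means are not given. Whether any of these correlations exceeds chance was not tested, so the genes are named as a description and not as partners.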

How the data were processed

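RNA of E14 mESCs was sequenced in 18 libraries, 3 for each of 6 gels grouped by the labels. Per the labels, the authors trimmed reads with Trim Galore 0.4.4, aligned them with GSNAP to mm10 (GRCm38) and counted them per Ensembl gene with HTSeq, and the deposited values were raw counts. Whether strand was used is not given in the sources used here. HTSeq summary lines, 61.5 to 64.0% of each column, stayed out of library sizes and tests.

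Symbols, biotypes and exons came from GENCODE M21, which named 45143 of 46078 identifiers. Protein-coding genes passing filterByExpr (minimum count 10) were scaled by TMM and fitted with edgeR 4.0.16 (R 4.3.3) by robust quasi-likelihood, 1 coefficient per group, with Benjamini-Hochberg adjustment over 13438 genes. Soft, high AHA replicate 1 was left out. Adjusted p-values are edgeR's unless named otherwise. SE is the log2 fold change over the root of F, and intervals are 95%. Alternatives were DESeq2 1.42.0, RLE scaling, other filters, biotypes and libraries, and pseudogene counts added. On simulated counts for the averaged soft minus stiff comparison (13140 genes), 83% of changes of 0.3 and 100% of changes of 0.6 (log2) were recovered, with 4 false calls. Every gene was simulated with 1 common dispersion, and only genes with a mean of at least 10 CPM were changed. No size under 0.3 was tried, so the rates do not cover Dazl or the smaller changes of Zfp42, Dppa5a and Fbxo15. Shared sequence was found by exact matches of 50 bases and BLAST 2.17.0+, and alignments were made with Biopython 1.88.

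The 10 genes and all lists were chosen with earlier results of these data known, and the lists came from general knowledge. Named were the 10 genes, up to 4 called genes per other list with the lowest adjusted p and a mean of at least 1 CPM, the 2 likest genes (mean at least 10 CPM) and pseudogenes sharing 50 bases. Other genes (Akt2, Kitl, Tcstv3, Ddx4 and the cell type markers) were named after their values were seen.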

Additional observations from a re-analysis of the deposited data

Results flagged for a closer look

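Dppa5a on soft gels had 1 library far above the others, replicate 3 of the soft, high AHA group at 173 CPM, while the other 7 soft libraries were at 138 to 154 CPM. The 20 sets of soft or stiff libraries were examined in this way, and chance flags about 1 in 20. The soft, high AHA library that was left out of the tests held Dppa3 at 13.8 CPM, below every other soft library, and Kit at 71.7 CPM, above every other library.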

How the results depend on the processing

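Averaged over AHA, 5 to 7 of the 10 genes were called with each library left out in turn, and 6 or 7 under every other alternative run. Kit, Zfp42, Dppa3 and Tcl1 kept their call in all of them. Dppa5a lost it in 1, Fbxo15 in 2 (both soft, high AHA libraries; 0.10 and adjusted p = 0.100 with replicate 2 left out in place of replicate 1), and Prdm14 in 11, 9 of them with 1 library left out (0.34 and adjusted p = 0.072 with replicate 3 of that group left out in place of replicate 1). Dppa4 ranged from -0.062 to 0.12 with 1 library left out, below 0 in 2 of these fits (-0.062 and -0.0070). The cause was not tested. At low AHA the count of called genes was 0 to 3 with 1 library left out and 3 with only the groups compared (Dppa3 added), against 2. At mid AHA it was 0 to 2 with 1 library left out, against 1. It was 2 with RLE size factors, with genes of at least 2 counts, with all 18 libraries, with soft, high AHA replicate 2 left out in place of replicate 1 and with only the groups compared, Zfp42 being the added gene in each, and 0 with DESeq2, with genes of every biotype and without robust priors. At high AHA it was 1 in each fit with 1 library left out, but Dppa5a in place of Kit without soft, high AHA replicate 2. DESeq2 gave 0, but its filter left 7 of the 10 genes, Kit included, without an adjusted p. All 18 libraries gave 3, replicate 2 left out in place of replicate 1 gave 3, and replicate 3 left out in its place gave 2, with Tcl1 added in each and Dppa5a in the first 2. For AHA contrasts and for the equality of the 3 differences, the count was 0 in every fit run. No paired analysis was possible because the labels give no replicate numbers shared between groups. The replicate numbers used here follow the order of the libraries within each group. Counting error alone was highest for Dazl and Prdm14, at 16.8% and 12.9% of the mean count. Against counting error, the chi-square per degree of freedom within groups was 0.66 for Dazl and 2.29 for Prdm14. The libraries of Prdm14 thus spread more than counting error gives.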
